A study of Mus musculus with 12 samples.

Results

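The 10 genes described here encode the hyaluronan-rich pericellular matrix: the lecticans aggrecan (Acan) and versican (Vcan), the link proteins Hapln1, Hapln3 and Hapln4, the hyaluronan synthases Has1, Has2 and Has3, the hyaluronan receptor Cd44, and Tnfaip6, which encodes TSG-6. They were taken by gene symbol from the 55487 genes of the deposited table, and each matched 1 row. RNA had been sequenced from primary vascular smooth muscle cells (VSMCs) of wild-type mice and of mice labelled TIGAR knockout, to compare how the 2 genotypes respond to PDGF-BB, a platelet-derived growth factor that drives smooth muscle to migrate and divide. Each genotype had 3 untreated libraries and 3 treated ones, 12 in all, where treated cells had received PDGF-BB at 40 µg/L for 6 h. The mice of all 4 groups were aged 4 to 6 weeks, and the cells were grown in medium with serum and used between passages 4 and 6. The vessel, the knockout allele and any pooling of mice are not stated in the labels, nor is it said that the 3 libraries in each group derive from different animals or dishes. The p-values hence measure only the spread between these libraries, which may be technical.

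Hyaluronan is an unbranched sugar polymer that the synthases extrude through the plasma membrane from UDP-glucuronic acid and UDP-N-acetylglucosamine. Lecticans are large chondroitin sulfate proteoglycans that bind it through their N-terminal domain, and link proteins hold that bond in place. Aggrecan is the load-bearing proteoglycan of cartilage, and versican is found in the vessel wall and other soft tissue. Cd44 anchors the polymer to the cell, and TSG-6 moves heavy chains of inter-alpha-inhibitor onto it. In arteries, versican and hyaluronan are known to build up around smooth muscle cells that migrate and divide.

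Library totals ranged from 14953807 to 21698488 reads, and levels are in CPM, each library's reads being scaled to sum to 1000000, so that 1 read was 0.0669 CPM in the shallowest library. Tigar, the gene named in the genotype label, was called higher in knockout-labelled libraries, at 7.50 ± 0.955 CPM (SD, n = 3) in wild-type and 11.2 ± 1.12 CPM in labelled knockout untreated (log2 0.52, adjusted p = 0.00209, limma-trend) and at 11.9 ± 0.659 and 15.2 ± 0.888 CPM with PDGF-BB (0.33, adjusted p = 0.0292). Tigar RNA was thus not lower under the knockout label. The allele is not stated and the table holds 1 value per gene, so the label could not be checked. Every genotype direction below is by label. Replicate 1 of treated wild-type stood apart from its group: its root mean square log2 distance from the other 2 libraries was 0.416, against 0.143 to 0.293 for the other 11 libraries, and its median log2 difference from them ran from 0.36 for genes under 2 kb of exon to -0.69 for the 297 genes over 10 kb. Smooth muscle markers were present unevenly, with Acta2 at 1298 to 2578 CPM as group means but Tagln at 3.41 to 6.93 CPM, and the cartilage collagen Col2a1 stood at 623 to 967 CPM. In untreated wild-type libraries 8 smooth muscle markers summed to 1808 to 2294 CPM and 12 chondrocyte markers to 1947 to 2382 CPM. The sums in untreated labelled knockout were 2259 to 3466 and 1598 to 1659 CPM. Of 7 endothelial markers, all 7 were called higher in labelled knockout with and without PDGF-BB, and their summed level was 74.8 to 97.6 CPM over the 6 wild-type and 571 to 696 CPM over the 6 labelled knockout libraries. Of 7 macrophage and leukocyte markers that passed the filter, 7 were lower without and 6 with PDGF-BB (100.2 to 145 against 29.9 to 36.6 CPM), and 6 of 10 chondrocyte markers were lower at either treatment, with 1 higher among treated cells. All 4 proliferation markers were lower in untreated labelled knockout and fell with PDGF-BB in wild-type. Beside these marker counts, 34.0% of all genes tested were called between genotypes untreated and 37.2% with PDGF-BB. On PDGF-BB in wild-type 59.4% were called. Fibroblast, Schwann cell, epithelial and mesothelial, adipocyte and striated muscle markers each summed to at most 199.6 CPM in every library, and Sox10 was at 0 in all. Untreated fibroblast sums were 188 to 199.6 CPM in wild-type and 138 to 186 in labelled knockout, and Schwann cell sums 42.3 to 50.3 and 15.2 to 16.9. Epithelial and mesothelial sums were higher in labelled knockout (10.3 to 11.8 against 20.3 to 25.0), as were adipocyte sums (8.94 to 10.3 against 13.7 to 15.4). Striated muscle sums overlapped.

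Promoter sequence is shown for 4 members, since Cd44 and Vcan were the members with the largest rises on PDGF-BB and Acan and Tnfaip6 were higher in labelled knockout under both treatments. Each run is the part of the RefSeq promoter window (GRCm38.p6, 250 bases before to 50 after the start, 5′ to 3′ on the gene's strand) that lies before the start and outside the gene's annotated exons, and capitals mark matches to the motifs searched.
Cd44, chr2:102901666-102901915, minus strand: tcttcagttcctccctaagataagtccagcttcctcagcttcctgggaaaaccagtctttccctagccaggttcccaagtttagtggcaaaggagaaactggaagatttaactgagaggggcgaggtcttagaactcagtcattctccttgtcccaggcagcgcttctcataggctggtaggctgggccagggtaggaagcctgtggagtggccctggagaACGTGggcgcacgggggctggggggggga
Vcan, chr13:89742513-89742762, minus strand: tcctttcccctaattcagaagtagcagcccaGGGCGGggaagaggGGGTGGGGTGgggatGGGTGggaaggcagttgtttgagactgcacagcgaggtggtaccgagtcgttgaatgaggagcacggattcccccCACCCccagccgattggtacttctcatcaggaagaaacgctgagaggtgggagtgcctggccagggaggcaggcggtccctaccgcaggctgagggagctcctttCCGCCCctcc
Acan, chr7:79052976-79053225, plus strand: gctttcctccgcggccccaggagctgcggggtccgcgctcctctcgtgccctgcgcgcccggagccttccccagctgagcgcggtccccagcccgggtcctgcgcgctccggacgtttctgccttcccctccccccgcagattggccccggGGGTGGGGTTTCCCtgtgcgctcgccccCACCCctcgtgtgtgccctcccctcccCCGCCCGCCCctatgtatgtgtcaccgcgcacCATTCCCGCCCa
Tnfaip6, chr2:52037863-52038008, plus strand: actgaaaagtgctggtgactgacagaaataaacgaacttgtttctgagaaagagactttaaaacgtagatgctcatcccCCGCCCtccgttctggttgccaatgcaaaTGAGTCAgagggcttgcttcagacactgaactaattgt

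RefSeq windows were found for 7 of the 10 members, and that of Hapln1 lies within its own exons. The motifs searched on both strands were AP-1 (TGANTCA), CRE (TGACGTCA), TEAD (GGAATG), SMAD (GTCTAGAC), HIF (ACGTG), TATA box (TATAAA), GC box (GGGCGG), FOXO (TGTTTAC), KLF (CACCC), the CArG box and NF-kappaB, and KLF, GC box and NF-kappaB matches can overlap. In Tnfaip6 the capitals are an AP-1 match at -142 from the start, held by 7.93% of 27025 promoter windows, and a GC box at -171. The Tnfaip6 run ends at the gene's annotated exons, short of the RefSeq start at chr2:52038113 from which these positions count. The Cd44 stretch holds 1 match, to HIF at -29 (19.7% of windows). Vcan holds 2 GC boxes, at -219 and -10 (35.9% of windows), and 4 KLF matches (56.7% of windows). Acan holds 3 GC boxes between -44 and -7, an NF-kappaB match at -95 (4.35% of windows), 2 KLF matches and a TEAD match at -12 (14.6% of windows). Has1, not shown, has a CRE match at -83 (1.88% of windows). These matches are letters in a window and are not evidence of binding.

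Per kb of exon, Cd44 and Acan were the 2 most abundant members in every group. In untreated wild-type cells Cd44 stood at 23.9 ± 0.551 CPM per kb (SD, n = 3) and Acan at 10.9 ± 0.550, and with PDGF-BB at 181.6 ± 2.91 and 8.97 ± 1.70. In labelled knockout the order was turned without PDGF-BB, with Acan at 88.1 ± 4.87 and Cd44 at 19.7 ± 1.24 CPM per kb, and with PDGF-BB Cd44 was again first, at 110.7 ± 10.4 against 89.7 ± 4.30. With these lengths, those of the deposited table, libraries of the 2 genes did not overlap in any group. With the GENCODE M21 exon union as the length, the Acan mean was ahead in treated labelled knockout too, at 88.3 ± 4.24 CPM per kb against 82.4 ± 7.76 for Cd44, whose union is 6776 bases long against 5045 in the table. That gap was smaller than the SD of Cd44, so the order there was not resolved. The other 8 members were at or below 4.88 CPM per kb as group means. Vcan was the most abundant of these in both groups with PDGF-BB, at 3.84 ± 1.13 and 4.88 ± 0.375 CPM per kb. Its libraries did not overlap those of the next gene, Tnfaip6, in labelled knockout, but overlapped those of Has1 in wild-type. Has2 was the lowest synthase in each group, at 0.189 to 0.651 CPM per kb, but with the GENCODE lengths it was below Has3 only in untreated wild-type cells. Hapln3 was last in both wild-type groups and in untreated labelled knockout, where it overlapped Hapln1 (0.212 ± 0.0629 against 0.234 ± 0.0271 CPM per kb). In treated labelled knockout Hapln1 was last (0.126 ± 0.00641 CPM per kb) and did not overlap Hapln3.

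**Figure D1:**
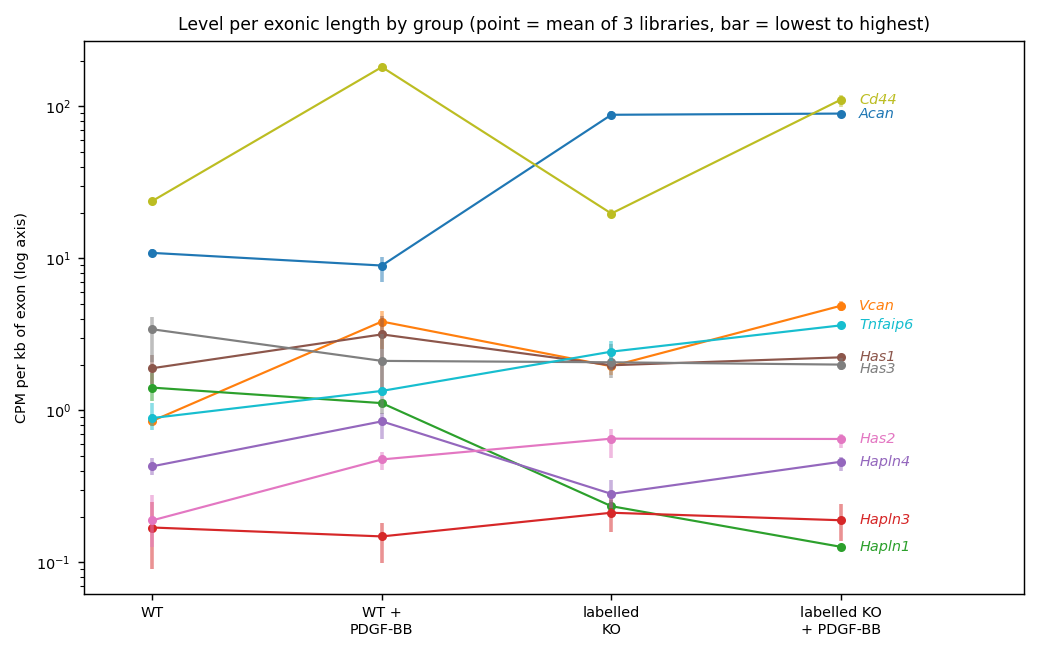
Level of each of the 10 genes in CPM per kb of exon (log axis, exon lengths of the deposited table) in the 4 groups, with points for the mean of 3 libraries and bars from the lowest to the highest library. Cd44 and Acan lie above the other 8 genes in all groups, and with these lengths Acan lies above Cd44 only in untreated labelled knockout cells.

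The test was limma-trend on log2(CPM + 1) with Benjamini-Hochberg adjustment over the 14202 genes that had at least 1 CPM in at least 3 of 12 libraries, and a gene was called at an adjusted p under 0.05. Differences on this scale understate the fold of genes of few reads, and errors beside log2 values are standard errors (SE). Of the 10 members 9 passed the filter, Hapln3 being the exception. With PDGF-BB in wild-type, 5 of the 9 rose (Cd44, Vcan, Has2, Hapln4, Tnfaip6) and Acan fell, where 59.4% of all genes tested were called. In labelled knockout 4 rose (Cd44, Vcan, Tnfaip6, Hapln4) and Hapln1 fell, where 42.4% were called. Labelled knockout against wild-type gave 4 higher (Acan, Vcan, Has2, Tnfaip6) and 2 lower (Hapln1, Cd44) without PDGF-BB, where 34.0% were called. With PDGF-BB it gave 2 higher (Acan, Tnfaip6) and 3 lower (Hapln1, Cd44, Hapln4), where 37.2% were called. Cd44 was the 1 member called by the interaction, the difference in PDGF-BB response between genotypes, which called 3.92% of all genes. The median log2 difference of the 9 members was 0.52, 0.14, 0.066, 0.017 and -0.26 in these 5 contrasts, against -0.082, -0.067, -0.13, -0.14 and 0.0054 for all genes. Among all called genes in labelled knockout against wild-type, 27.0% were higher without PDGF-BB and 28.5% with it, and under TMM scaling 48.7% and 47.4%. The contrasts share groups, so a group that lies high or low enters more than one of them.

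**Figure D2:**
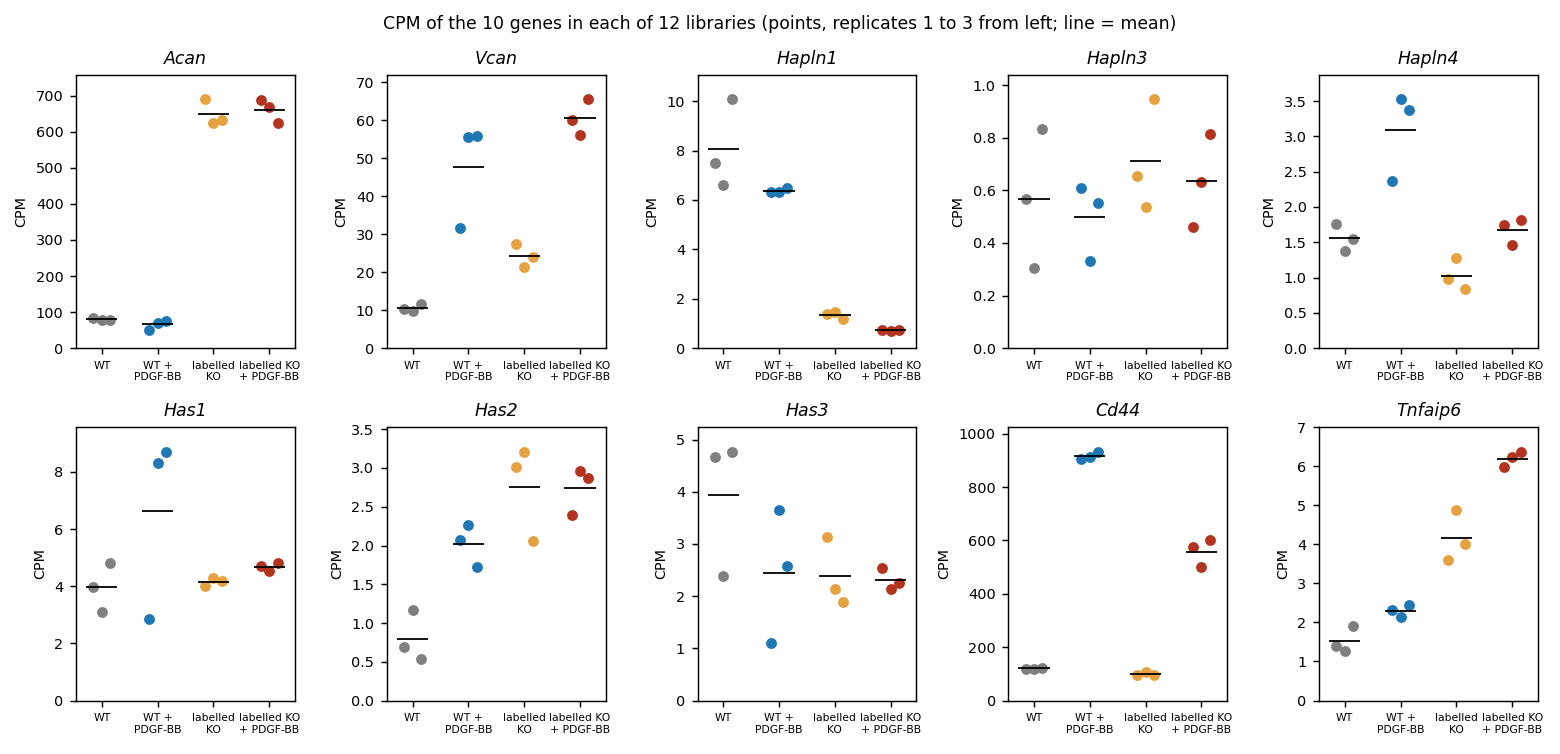
CPM (linear axis from 0, scaled per gene) of the 10 genes in each of the 12 libraries, with a line at each group's mean. Acan is at 84.6 CPM or below in all wild-type and at 624 CPM or more in all labelled knockout libraries, Cd44 is high in both groups with PDGF-BB, and replicate 1 of treated wild-type is the lowest of its group for Acan, Vcan, Has1, Has3, Hapln4 and Cd44.

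Aggrecan separated the genotypes. Acan (ENSMUSG00000030607, chr7:79053483-79115099, GRCm38.p6, plus strand) stood at 84.6, 77.9 and 77.3 CPM in untreated wild-type and at 689, 624 and 631 CPM in untreated labelled knockout libraries. With PDGF-BB the wild-type libraries stood at 51.8, 70.9 and 75.3 CPM and the labelled knockout ones at 687, 668 and 625 CPM. Every labelled knockout library was above every wild-type library, with the lowest labelled knockout library at 624 CPM and the highest wild-type one at 84.6 CPM. The mean was 8.11-fold higher in labelled knockout without PDGF-BB (log2 3.00, SE 0.11, adjusted p = 7.42e-10, limma-trend) and 10.0-fold higher with it (3.32, SE 0.11, adjusted p = 2.78e-10), and no alternative ended either call. Endothelial markers, given above, moved in the same direction and by a median log2 of 2.67 and 2.73, and their part in the Acan result was not tested. The chondrocyte markers, among them Sox9 and Col2a1, had a median log2 of -0.46 and -0.36 in the same contrasts. In bulk RNA, a change in the number of cells that express a gene and in the RNA per cell cannot be told apart.

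PDGF-BB moved Acan little within a genotype. In wild-type it fell by 0.29 on the log2 scale (SE 0.11, adjusted p = 0.0379), from 79.9 ± 4.04 to 66.0 ± 12.5 CPM (SD, n = 3). That call was lost under 12 of 24 alternatives, among them TMM scaling (-0.21, adjusted p = 0.134) and leaving out replicate 1 of treated wild-type (-0.13, adjusted p = 0.0621). It was also lost without any 1 of the untreated wild-type replicates 1 (-0.25, adjusted p = 0.124), 2 (-0.31, adjusted p = 0.0640) and 3 (-0.31, adjusted p = 0.0621), or without replicate 2 of treated labelled knockout (-0.29, adjusted p = 0.0513). The endothelial markers, of which 5 of 7 fell (median -0.36), and the chondrocyte markers, of which 8 of 10 fell (median -0.58), moved the same way on PDGF-BB in wild-type, and their part in the Acan difference was not tested. Among all 14202 genes tested in that contrast, 4884 were called lower and 3547 higher. In labelled knockout Acan went from 648 ± 35.8 to 660 ± 31.7 CPM, a difference of 0.026 (95% interval -0.21 to 0.27, adjusted p = 0.867), and the groups overlapped.

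Versican rose with PDGF-BB in both genotypes. Vcan (ENSMUSG00000021614, chr13:89655312-89742509, minus strand) went from 10.3, 9.78 and 11.7 CPM in untreated wild-type libraries to 31.6, 55.6 and 56.0 CPM with PDGF-BB. In labelled knockout it went from 27.5, 21.3 and 23.9 to 60.1, 56.3 and 65.5 CPM. Treated and untreated libraries did not overlap in either genotype, and the treated wild-type library at 31.6 CPM was the replicate 1 that stood apart. Vcan has 12.4 kb of exon, and the part of exon length in that low value was not tested. The rise was 4.50-fold in wild-type (log2 2.03, SE 0.18, adjusted p = 6.66e-07) and 2.50-fold in labelled knockout (1.29, SE 0.18, adjusted p = 7.56e-05). Without PDGF-BB, Vcan was 2.29-fold higher in labelled knockout (1.12, SE 0.18, adjusted p = 0.000299). With PDGF-BB the difference was 0.38 (SE 0.18, adjusted p = 0.106) although the libraries did not overlap. The interaction of -0.74 (SE 0.25) was not called (adjusted p = 0.124), and without replicate 1 of treated wild-type it was -1.004 and called (adjusted p = 6.52e-05). The treated genotype difference was 0.11 without that library (adjusted p = 0.367) and 0.52 and called without replicate 3 of the same group (adjusted p = 0.0335).

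The ratio of the 2 lecticans differed along both axes of the design. Per kb of exon, Acan exceeded Vcan 12.8 ± 1.497 times in untreated wild-type (SD over 3 libraries), 2.40 ± 0.328 times in treated wild-type, 45.5 ± 3.74 times in untreated labelled knockout and 18.5 ± 2.09 times in treated labelled knockout. The 4 groups did not overlap, the lowest and highest libraries being 2.15 in treated wild-type and 49.6 in untreated labelled knockout. The 2 values of a ratio come from the same library.

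Of the link proteins, Hapln1 was lower in labelled knockout, where Acan was higher. Hapln1 (ENSMUSG00000021613, chr13:89539796-89611652, plus strand, with 43659 bases between it and Vcan) stood at 7.50, 6.62 and 10.1 CPM in untreated wild-type and 1.37, 1.47 and 1.17 CPM in untreated labelled knockout libraries. With PDGF-BB the values were 6.32, 6.31 and 6.50 CPM against 0.737, 0.681 and 0.750 CPM. No labelled knockout library reached a wild-type one, and the labelled knockout libraries held 12 to 22 reads of it. It was 6.03-fold lower in labelled knockout without PDGF-BB (log2 -1.94, SE 0.13, adjusted p = 1.99e-07) and 8.82-fold lower with it (-2.10, SE 0.13, adjusted p = 1.02e-07), and no alternative ended either call. Macrophage and leukocyte markers and the chondrocyte marker Comp, a cartilage matrix protein at 292 against 28.4 CPM untreated, were lower in the same libraries, and their part in the Hapln1 result was not tested. Acan exceeded Hapln1 per kb 7.96 ± 1.74 times in wild-type and 380 ± 45.9 times in untreated labelled knockout cells, and 8.03 ± 1.44 and 711 ± 58.1 times with PDGF-BB.

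With PDGF-BB, Hapln1 fell by 0.44 on the log2 scale in labelled knockout (SE 0.13, adjusted p = 0.0187), with no overlap of libraries. The call was lost with a pseudocount of 5, with no filter, under quantile normalization and without replicate 2 of untreated labelled knockout (-0.40, adjusted p = 0.0607) or with PDGF-BB (-0.42, adjusted p = 0.0550). In wild-type the difference was -0.28 (SE 0.13, adjusted p = 0.0914), and it was called without replicate 2 of the untreated group (-0.40, adjusted p = 0.0312).

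Hapln4 (ENSMUSG00000007594, chr8:70083457-70090862, plus strand), the link protein best known from the brain, moved with treatment. It stood at 1.76, 1.37 and 1.55 CPM in untreated wild-type and 2.37, 3.52 and 3.37 CPM in treated wild-type, a rise of 0.66 (SE 0.14, adjusted p = 0.00143). In labelled knockout it went from 0.982, 1.27 and 0.834 to 1.75, 1.46 and 1.81 CPM, a rise of 0.40 (SE 0.14, adjusted p = 0.0382). Libraries did not overlap in either genotype. The labelled knockout call was lost under 8 of 23 alternatives. These included leaving out replicate 1 (0.39, adjusted p = 0.0866) or 3 (0.33, adjusted p = 0.127) of untreated labelled knockout, 1 (0.38, adjusted p = 0.103) or 3 (0.36, adjusted p = 0.113) of treated labelled knockout, and 3 of untreated wild-type (0.40, adjusted p = 0.0509). Hapln4 was lower in treated labelled knockout (-0.60, SE 0.14, adjusted p = 0.00570), and without PDGF-BB the difference of -0.34 was not called (adjusted p = 0.0857). Hapln3 (ENSMUSG00000030606, chr7:79115102-79131018, minus strand) had 5 to 17 reads a library, 0.306 to 0.945 CPM, in all groups. It is the next gene to Acan, on the opposite strand with 2 bases between them, and its highest library in labelled knockout was 0.945 CPM while Acan stood at 624 CPM or more.

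The synthases were all low, at 9 to 142 reads a library. Has2 (ENSMUSG00000022367, chr15:56665627-56694539, minus strand), which makes long hyaluronan and is the one required for heart development, had 0.693, 1.17 and 0.536 CPM in untreated wild-type and 2.06, 2.26 and 1.72 CPM in treated wild-type libraries. In labelled knockout it had 3.01, 3.21 and 2.06 CPM untreated and 2.40, 2.97 and 2.87 CPM with PDGF-BB. The untreated wild-type libraries lay below all others, and the 2 labelled knockout groups overlapped. Has2 rose by 0.75 on PDGF-BB in wild-type (SE 0.16, adjusted p = 0.00138), and the difference in labelled knockout was 0.0053 (95% interval -0.35 to 0.36, adjusted p = 0.983). Untreated labelled knockout was higher than untreated wild-type by 1.06 (SE 0.16, adjusted p = 0.000228), a ratio of mean CPM of 3.45. With PDGF-BB that difference was 0.31 (SE 0.16, adjusted p = 0.144). The interaction of -0.75 (SE 0.23) was not called (adjusted p = 0.0921), while DESeq2 on recovered reads gave -1.32 and called it (adjusted p = 0.0381). Has2os, on the opposite strand, covers 4.30% of the Has2 exon bases, and whether the counting used strand is not stated.

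Has1 (ENSMUSG00000003665, chr17:17843323-17855205, minus strand) had 3.97, 3.11 and 4.83 CPM in untreated wild-type and 2.85, 8.31 and 8.71 CPM in treated wild-type libraries, the low one being the replicate 1 that stood apart. In labelled knockout it had 3.99, 4.28 and 4.17 CPM untreated and 4.70, 4.52 and 4.81 CPM with PDGF-BB. The wild-type response was 0.52 (SE 0.27, adjusted p = 0.114), and without that replicate 1 it was 0.95 and called (adjusted p = 1.31e-05). It was also called under quantile normalization, library weights, edgeR and DESeq2. In labelled knockout the response was 0.14 (SE 0.27, adjusted p = 0.704). Labelled knockout differed from wild-type by 0.066 without (SE 0.27, adjusted p = 0.879) and by -0.31 with PDGF-BB (SE 0.27, adjusted p = 0.380). Without replicate 1 of treated wild-type the latter was -0.74 (adjusted p = 0.000407) and the Has1 interaction was -0.81 in place of -0.38 (adjusted p = 0.00989 in place of 0.627). With library weights both of these were called as well (-0.71 and -0.76).

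Has3 (ENSMUSG00000031910, chr8:106870242-106884566, plus strand), which makes shorter hyaluronan, had 4.66, 2.39 and 4.77 CPM in untreated wild-type and 1.09, 3.66 and 2.57 CPM in treated wild-type libraries. Labelled knockout libraries lay at 1.89 to 3.14 CPM untreated and 2.14 to 2.53 CPM with PDGF-BB. The groups overlapped in all 4 pairs compared, and no contrast of Has3 was called. The wild-type response of -0.56 (SE 0.27, adjusted p = 0.0896) was called without replicate 2 of the untreated group (-0.81, adjusted p = 0.0238) or replicate 2 of the treated one (-0.81, adjusted p = 0.0202), and was -0.24 (adjusted p = 0.351) without replicate 1 of the treated group, which stood apart. The untreated difference of -0.52 between genotypes (adjusted p = 0.154) was called without replicate 1 of treated wild-type (adjusted p = 0.0315). Chtf8, on the opposite strand, covers 5.52% of the Has3 exon bases of GENCODE.

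As shares of the 3 synthases' summed CPM per kb, Has2 made up 3.94% ± 2.86 (SD, n = 3) in untreated wild-type, 10.1% ± 6.35 in treated wild-type, 13.8% ± 2.28 in untreated labelled knockout and 13.3% ± 1.82 in treated labelled knockout. Its share was 9.85 points higher in labelled knockout than in untreated wild-type cells, without overlap, at the smallest 2-sided p that 20 splits of 3 against 3 allow (exact permutation p = 0.1). The wild-type response was 6.17 points (exact permutation p = 0.3), the labelled knockout response -0.49 points (p = 0.8) and the genotype difference with PDGF-BB 3.20 points (p = 0.4). Single libraries of treated wild-type moved these values: without replicate 1 the wild-type response was 2.52 points, and the genotype difference with PDGF-BB was 6.85, 1.62 and 1.12 points without replicates 1, 2 and 3. The summed level itself was 5.50 ± 1.46, 5.75 ± 2.60, 4.70 ± 0.613 and 4.88 ± 0.151 CPM per kb, with overlap. The order of Has1 and Has3 depends on the length used: the table gives 2095 and 1154 bases of exon, the GENCODE M21 union 4518 and 6380 bases. In untreated wild-type cells Has3 held 61.1% ± 6.28 with the table's lengths and 35.9% ± 6.97 with the GENCODE ones, and Has1 35.0% ± 3.81 and 52.0% ± 2.78. The untreated genotype difference in the Has2 share was 21.1 points with the GENCODE lengths and 19.4 points with no length scaling.

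**Figure D3:**
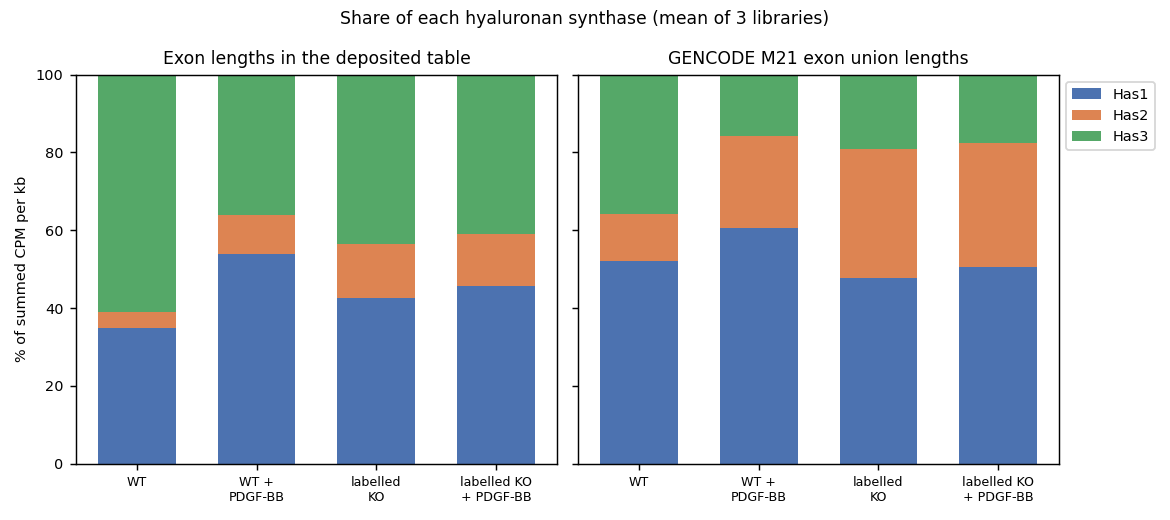
Mean share (%, 3 libraries) of Has1, Has2 and Has3 in their summed CPM per kb in the 4 groups, with the exon lengths of the deposited table (left) and the GENCODE M21 exon union (right). The Has2 share is lowest in untreated wild-type cells with both lengths, 3.94% and 12.1%, and the Has3 share is smaller with the longer GENCODE length.

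Cd44 had the largest PDGF-BB response of the members. Cd44 (ENSMUSG00000005087, chr2:102811141-102901665, minus strand) went from 118, 119 and 124 CPM in untreated wild-type to 904, 912 and 933 CPM in treated wild-type libraries. In labelled knockout it went from 94.7, 106.6 and 97.3 to 574, 500.0 and 602 CPM. Treated libraries lay far above untreated ones in both genotypes, and the labelled knockout libraries lay below the wild-type ones under each treatment. The rise was 7.61-fold in wild-type (log2 2.92, SE 0.074, adjusted p = 5.44e-11) and 5.61-fold in labelled knockout (2.47, SE 0.074, adjusted p = 4.88e-10). With PDGF-BB, Cd44 was 1.64-fold lower in labelled knockout (-0.72, SE 0.074, adjusted p = 6.96e-06), and no alternative ended these 3 calls. Without PDGF-BB it was 1.21-fold lower (-0.27, SE 0.074, adjusted p = 0.0111), a call lost under TMM scaling (-0.14, adjusted p = 0.212), edgeR (-0.14, adjusted p = 0.239) and DESeq2 (-0.13, adjusted p = 0.304). Smooth muscle markers, higher in labelled knockout for 4 of 7 genes without and 6 of 7 with PDGF-BB, and macrophage and leukocyte markers, lower for 7 and 6 of 7, moved with the genotype, and their part in the Cd44 difference was not tested. In those contrasts 34.0% and 37.2% of all genes were called.

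The Cd44 response was smaller in labelled knockout by 0.44 on the log2 scale (SE 0.10, adjusted p = 0.0313, limma-trend interaction). The call was lost under 11 of 23 alternatives while the value stayed between -0.50 and -0.37. It was lost with no filter (adjusted p = 0.0716), in limma without trend (adjusted p = 0.0645), with a replicate block (-0.44, adjusted p = 0.0614) and without any 1 of 8 libraries: replicates 1 (-0.43, adjusted p = 0.0907), 2 (-0.44, adjusted p = 0.0790) and 3 (-0.46, adjusted p = 0.0669) of untreated wild-type, 2 of treated wild-type (-0.45, adjusted p = 0.0581), 2 (-0.39, adjusted p = 0.0902) and 3 (-0.46, adjusted p = 0.0664) of untreated labelled knockout, and 1 (-0.46, adjusted p = 0.0668) and 2 (-0.37, adjusted p = 0.0849) of treated labelled knockout. Without replicate 1 of treated wild-type it was -0.45 (adjusted p = 0.00230).

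Tnfaip6 (ENSMUSG00000053475, chr2:52038009-52056686, plus strand) was higher in labelled knockout and rose with PDGF-BB in both genotypes. It stood at 1.39, 1.27 and 1.91 CPM in untreated wild-type, 2.31, 2.13 and 2.45 CPM in treated wild-type, 3.60, 4.88 and 4.00 CPM in untreated labelled knockout and 5.99, 6.23 and 6.37 CPM in treated labelled knockout libraries. The 4 groups formed an ascending order without overlap. Labelled knockout was 2.73-fold higher without PDGF-BB (log2 1.03, SE 0.13, adjusted p = 4.39e-05) and 2.70-fold higher with it (1.13, SE 0.13, adjusted p = 1.94e-05). The rise on PDGF-BB was 0.49 in labelled knockout (SE 0.13, adjusted p = 0.00848) and 0.39 in wild-type (SE 0.13, adjusted p = 0.0187). The wild-type call was lost with no filter and without replicate 1 (0.36, adjusted p = 0.0626) or 2 (0.32, adjusted p = 0.0765) of the untreated or 3 (0.36, adjusted p = 0.0523) of the treated group. The interaction was 0.094 (95% interval -0.30 to 0.49, adjusted p = 0.814). Endothelial markers and macrophage and leukocyte markers, given above, also differed between genotypes. Their part in the Tnfaip6, Vcan and Has2 genotype differences was not tested.

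**Figure D4:**
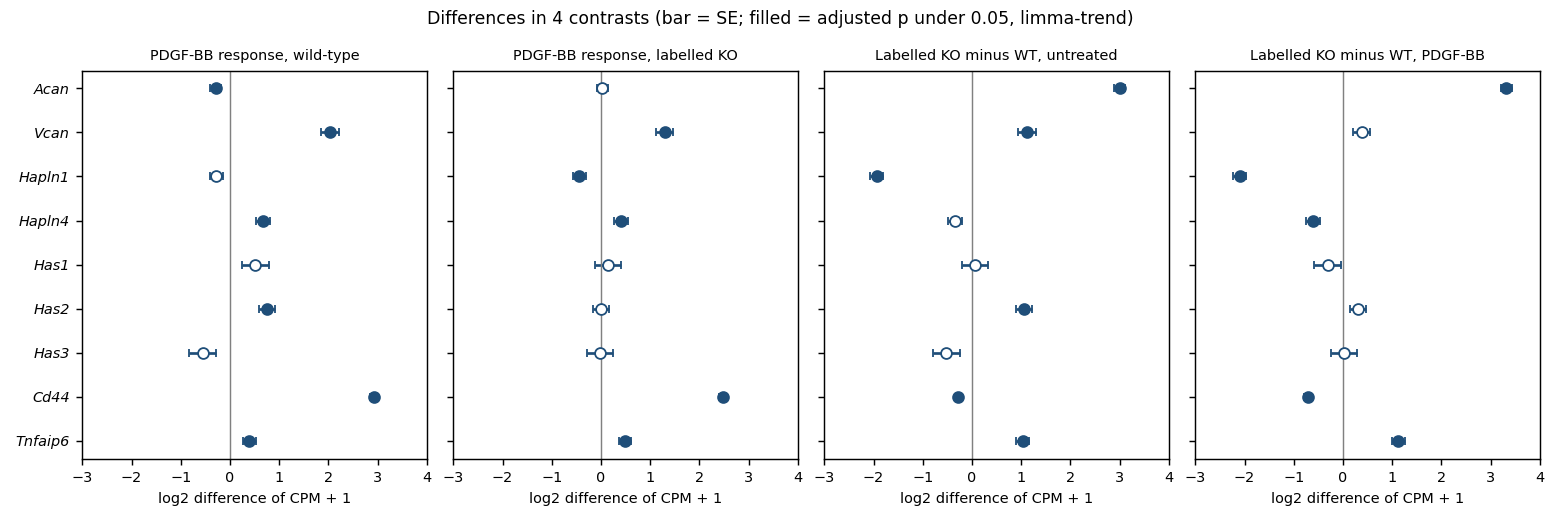
log2 difference of CPM + 1 (horizontal axis) for the 9 members that passed the filter in the 2 treatment and the 2 genotype contrasts, with SE bars and filled points at an adjusted p under 0.05 (limma-trend). Cd44 and Vcan lie to the right in both treatment panels, and Acan (3.00 and 3.32) and Hapln1 (-1.94 and -2.10) lie on opposite sides in both genotype panels.

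Across the 12 libraries the members fell into patterns that follow the 4 group means, given here as descriptions. Pearson's r of log2(CPM + 1) was -0.97 for Acan with Hapln1, 0.89 for Acan with Tnfaip6, -0.94 for Hapln1 with Tnfaip6, 0.81 for Cd44 with Hapln4 and 0.80 for Cd44 with Vcan, while Acan with Cd44 gave -0.22 and Cd44 with Hapln1 0.011. Among genes of at least 10 CPM on average, those most like Acan were Cdh5 (r = 0.997), the cadherin of endothelial junctions, Kit (0.997), a receptor tyrosine kinase, and Adgrf5 (0.996), an adhesion receptor. Cdh5 stood at 27.3 CPM in wild-type and 178 CPM in untreated labelled knockout cells. Hapln1 was most like Alcam (0.996), a cell adhesion molecule, Comp (0.994) and C1qtnf3 (0.994). Cd44 was most like Trib2 (0.996), a pseudokinase, Ereg (0.994), a ligand of the EGF receptor, and Pgs1 (0.993). Vcan was most like Nrp1 (0.991), a co-receptor for semaphorins and VEGF, Prrc1 (0.989) and Smpd3 (0.988), and Tnfaip6 most like Elovl5 (0.983), the collagen gene Col1a1 (0.978) and Atp8b1 (0.968). Hapln4 was most like Zbtb1, Raph1 and Il16 (0.968 to 0.975), Has2 like Atp2a2 and Fstl1 (0.909 to 0.915), Has1 like Cyb5d1, Thada and Bcl9l (0.924 to 0.935), and Has3 like Supt20, Tubgcp3 and Mysm1 (0.895 to 0.910). All libraries share the preparation and differ by treatment and label, so these values carry the group differences already given.

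Enzymes that supply the synthases rose with the treatment. Of 6 precursor genes that passed the filter, 5 rose on PDGF-BB in each genotype (median log2 1.05 in wild-type and 0.51 in labelled knockout, against -0.082 and -0.067 for all genes). In these contrasts 59.4% and 42.4% of all genes were called in either direction. Ugdh, which makes UDP-glucuronic acid, went from 78.8 ± 4.01 to 315 ± 52.1 CPM in wild-type (1.97, SE 0.092, adjusted p = 3.09e-09) and rose by 1.72 in labelled knockout, where Pgm3, of the hexosamine pathway, rose by 0.69. Uap1, which makes UDP-N-acetylglucosamine, rose by 1.16 in wild-type, and its interaction was -0.67 (adjusted p = 0.00696). Between genotypes 2 of the 6 were higher untreated (Ugp2 by 0.50, Pgm3 by 0.30, list median 0.12) and 3 lower with PDGF-BB (list median -0.30), as in Gfpt2 (-0.67) and Ugdh (-0.48). The shares of all genes called there were 34.0% and 37.2%.

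Among the genes that remove hyaluronan or lecticans, more fell than rose on PDGF-BB, as among all genes, of which 4884 fell and 3547 rose in wild-type and 3523 fell and 2502 rose in labelled knockout. Between genotypes 34.0% of all genes were called without PDGF-BB and 37.2% with it. Of 6 breakdown genes 3 fell and 1 rose in wild-type (median -0.20) and 1 fell in labelled knockout (-0.17). Cemip, a hyaluronan-degrading protein, went from 2876 ± 210.0 to 776 ± 217 CPM in wild-type (-1.93, SE 0.17, adjusted p = 6.65e-07) and fell by 0.69 in labelled knockout, an interaction of 1.24 (adjusted p = 0.0108). Without replicate 1 of treated wild-type the Cemip response there was -1.67, its interaction 0.98 and its genotype difference with PDGF-BB 0.77, all still called. The hyaluronidase Hyal1 fell by 0.90 in wild-type (-0.58 without replicate 1 of the treated group). Between genotypes 1 was higher and 2 lower untreated (median -0.065), with Cemip2 at 1.39 and Hyal1 at -0.64 (not called under TMM scaling, -0.51, adjusted p = 0.113, nor with quantile normalization, edgeR or DESeq2), and 2 were higher with PDGF-BB (median -0.073), with Cemip at 1.03 and Cemip2 at 0.96. Of the 6 genes that passed the filter in the list of lectican-cleaving proteases and their inhibitor Timp3, 4 fell in wild-type (median -1.14) and 3 in labelled knockout (median -0.87). Adamts5, the main aggrecanase of mouse cartilage, went from 829 ± 14.97 to 184 ± 22.8 CPM in wild-type (-2.17, SE 0.15, adjusted p = 7.33e-08), Adamts9 fell by 1.58 in wild-type and 2.04 in labelled knockout, and Adamts15 by 1.65 in labelled knockout. Adamts5 was also lower in labelled knockout, at -2.40 untreated and -1.78 with PDGF-BB, in the libraries where Acan was higher, and Adamts1 stood at -1.19 untreated with an interaction of 0.68 (adjusted p = 0.00410). In each genotype contrast 2 of the 6 were higher and 2 lower (medians 0.088 and -0.23), with Adamts15 higher by 0.91 with PDGF-BB.

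The chains that lecticans carry were covered by 2 lists. For the counts below, 59.4% of all genes were called on PDGF-BB in wild-type and 42.4% in labelled knockout. Between genotypes the shares were 34.0% without PDGF-BB and 37.2% with it. Of 12 linker and chain synthesis genes, 7 rose and 1 fell on PDGF-BB in wild-type (median 0.52), and 5 rose and 1 fell in labelled knockout (0.21). Xylt1, which starts the chain on the core protein, rose by 2.09 in wild-type (SE 0.16, adjusted p = 1.90e-07) and 1.79 in labelled knockout and was lower in labelled knockout at -1.53 untreated and -1.84 with PDGF-BB. Csgalnact1, which adds the first galactosamine, fell by 1.57 in wild-type with an interaction of 0.99 (adjusted p = 0.00147) and stood at -1.59 and -0.60 between genotypes, and Chsy1, a chain polymerase, rose by 0.89 in labelled knockout. Between genotypes 1 of the 12 was higher and 3 lower untreated (median -0.016), and 1 higher and 6 lower with PDGF-BB (-0.23). Of 11 sulfation and epimerisation genes, 6 rose and 3 fell in wild-type (median 0.20), 5 rose and 2 fell in labelled knockout (0.17), 4 were higher and 2 lower in untreated labelled knockout (0.077), and 3 were higher and 4 lower with PDGF-BB (-0.062). The sulfotransferases Chst7 and Chst11 rose by 0.95 and 0.91 in wild-type, and Chst3 and Chst7 by 0.79 and 0.51 in labelled knockout. Chst11 was higher by 0.67 in untreated labelled knockout, Papss2, which makes the sulfate donor, by 0.59 with PDGF-BB, Ust stood at -0.73 and -0.77, and the epimerase Dse had an interaction of -0.31 (adjusted p = 0.0459, 0.0545 with edgeR and 0.0724 with quantile normalization).

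The partners of Cd44, Tnfaip6 and the lecticans moved in both directions. Of 8 other hyaluronan receptors and sensors, 1 rose and 3 fell in wild-type (median -0.24) and 1 rose and 1 fell in labelled knockout (-0.14). The receptor Layn rose by 1.16 and 1.02, Hmmr fell by 0.92 in wild-type and Tlr2 by 0.66 in labelled knockout. Between genotypes 2 were higher and 2 lower untreated (-0.034) and 1 higher and 1 lower with PDGF-BB (0.024). The scavenger receptor Stab1 was higher, at 2.05 and 2.38, Hmmr stood at -1.15 untreated and Tlr2 at -0.97 with PDGF-BB. In the same contrasts endothelial markers were higher (median log2 2.67 and 2.73) and macrophage and leukocyte markers lower. Their part in the Stab1 difference was not tested. For heavy chain transfer, 3 genes passed the filter, and 1 rose and 2 fell in wild-type (median -0.47), while 1 fell in labelled knockout (-0.22). Ptx3, the pentraxin that TSG-6 binds, went from 22.6 ± 2.26 to 62.1 ± 18.7 CPM in wild-type (1.38, SE 0.16, adjusted p = 6.81e-06), with an interaction of -1.04 (adjusted p = 0.0193) and a genotype difference of -0.97 with PDGF-BB. Without replicate 1 of treated wild-type these Ptx3 values were 1.16, -0.81 and -0.74, all still called. Itih5 fell by 0.53 in wild-type, a call lost without replicate 1 of treated wild-type (-0.34, adjusted p = 0.0976), with quantile normalization and with edgeR. Itih2, a heavy chain, fell by 0.38 in labelled knockout and stood at -0.56 and -0.48 between genotypes, where 1 and 2 of the 3 were lower (medians 0.071 and -0.48). Of 8 Cd44 linkers, sheddases and ligand, 4 rose and 2 fell in wild-type (median 0.16), 4 rose and 3 fell in labelled knockout (0.083), 3 were higher and 2 lower in untreated labelled knockout (0.047), and 3 were higher and 4 lower with PDGF-BB (-0.064). The ligand osteopontin, Spp1, rose by 1.22 and 0.87 on PDGF-BB but stood at -2.11 and -2.46 in labelled knockout, the sheddase Mmp14 rose by 0.64 in wild-type, the linker ezrin, Ezr, by 0.57 in labelled knockout, and Srgn, the proteoglycan serglycin, was higher at 1.14 and 0.90. Of 4 matrix partners of lecticans, 2 fell in wild-type (median -0.39, Fbn1 -0.55, not called under quantile normalization at -0.34 with an adjusted p of 0.0650, and Tnc -0.54, the 2 genes standing at -0.31 and -0.31 without replicate 1 of treated wild-type), Fbln2 rose by 0.36 in labelled knockout (list median -0.15), and Tnc (0.83 and 1.14) and Fbln1 (0.49 and 0.55) were higher in labelled knockout (list medians 0.25 and 0.45). The brain lectican Bcan was the 1 gene of its list of 3 that passed the filter. It rose by 0.50 in wild-type, where it stood at 0.674 CPM untreated, and was at 0.33 and not called in labelled knockout. Between genotypes it was higher in labelled knockout by 1.18 and 1.01. These counts stand beside the 59.4%, 42.4%, 34.0% and 37.2% of all genes called in the 4 contrasts.

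**Figure D5:**
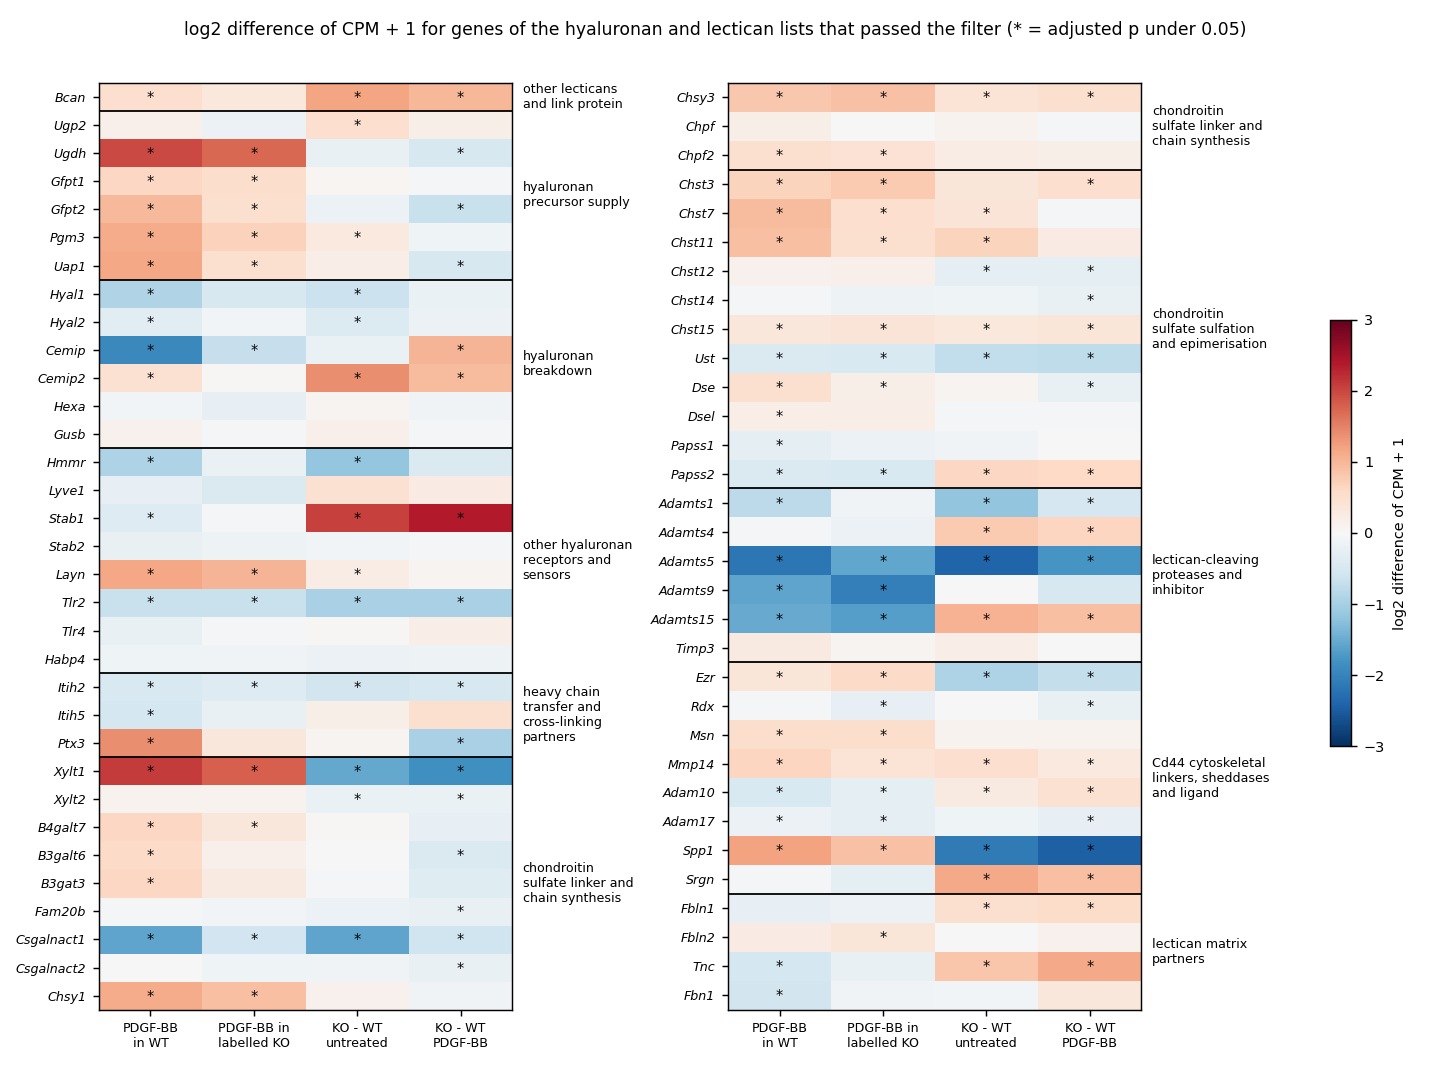
log2 difference of CPM + 1 (colour scale from -3 to 3) in the 2 treatment and 2 genotype contrasts for the genes of the pathway lists that passed the filter, with an asterisk at an adjusted p under 0.05 (limma-trend). Precursor genes such as Ugdh are red in both treatment columns, proteases such as Adamts5 and Adamts9 blue, and Stab1 is red and Spp1 blue in the genotype columns.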

How the data were processed

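HISAT2 (alignment) and HTSeq (counting) on mm10 are named in the submitters' processing notes. Versions, annotation and strand setting are not given in the sources used here. Per the labels' protocols, the libraries were stranded and made from poly(A) RNA. The deposited values are CPM, though the table's name says FPKM: each library summed to 1000000, and 100% of values, times the library total, lay within 0.01 of a whole read. The assembly is GRCm38.p6, per the file headers. Of 55487 genes 25008 were at 0 in all libraries. The deposited table also gives each gene's exon length in bases, used here only for levels per kb.

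Differences were tested with limma 3.58.1 in R 4.3.3 (lmFit, then eBayes with trend) on log2(CPM + 1) in a single fit of 12 libraries with 1 mean per group, 2-sided. The 5 contrasts were the PDGF-BB response in each genotype, the genotype difference at each treatment, and the interaction (response of labelled knockout minus that of wild-type). The Has2 share was tested by an exact permutation over libraries. Alternatives changed the pseudocount, filter, scaling, variance model, library weights, replicate block and groups in the fit, dropped single libraries, or used recovered reads in edgeR 4.0.16 or DESeq2 1.42.0. The procedure was tested on simulated data. The labels do not say that same-numbered libraries share an animal or day, so replicate numbers were not used as pairs. Correlating the libraries' deviations from their group means could not settle this.

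The members, the 10 pathway lists, the 10 marker lists and the tests were chosen with earlier results of these data known. All members are named. From each pathway list, up to 2 called genes with the largest difference in each contrast are named, and for each member the 3 genes with the highest r over the 12 libraries. Some genes that these rules would name are not reported here and were left out of the list counts. Genes of few reads are limited by counting error as well as by the spread between libraries. Promoters are from RefSeq (GRCm38.p6) and exon unions from GENCODE M21. Plots were made in matplotlib 3.10.9 (Python 3.11.15).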

Additional observations from a re-analysis of the deposited data

Results flagged for a closer look

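Cd44 was the 1 member for which a test of the difference itself called a different response to PDGF-BB between the genotype labels. Its response in labelled knockout minus that in wild-type was -0.44 on the log2 scale (SE 0.10, adjusted p = 0.0313, limma-trend interaction). Has2 (-0.75, SE 0.23, adjusted p = 0.0921) and Vcan (-0.74, SE 0.25, adjusted p = 0.124) had larger differences with larger SE and were not called. DESeq2 on recovered reads called both (adjusted p = 0.0381 and 0.0328). Cd44 rose in both genotypes, from 120 ± 2.78 to 916 ± 14.7 CPM (SD, n = 3) in wild-type and from 99.5 ± 6.26 to 559 ± 52.6 CPM in labelled knockout. The call was lost when any 1 of 8 libraries was left out, and the value kept its direction under all 23 alternatives.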

How the results depend on the processing

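Over the 45 pairs of a member and a contrast, 950 of 1041 values under the alternatives kept both direction and side of the threshold, 43 lost a call, 25 gained one and 23 changed direction, and 17 of the 23 called pairs kept their call throughout. The number of members called on PDGF-BB in wild-type was 6, and 3 with a mean CPM of at least 5, a filter that leaves 3 members (Acan, Vcan and Cd44). In labelled knockout it was 5, and 3 with a pseudocount of 5, 3 with no filter and 2 at a mean CPM of at least 5. Between genotypes it was 6 untreated and 5 with PDGF-BB, and 3 and 2 at a mean CPM of at least 5. For the interaction it was 1, and 0 with no filter, 0 without trend, 6 with library weights, 3 with DESeq2 and 0 to 3 when a library was left out, and where it was 0, between 3 and 5 members had an unadjusted p under 0.05. With the replicate block 0 members were called for the interaction (3 at an unadjusted p under 0.05), 417 genes in place of 557, and Acan on PDGF-BB in wild-type and Hapln4 in labelled knockout lost their calls. For deviations from the group mean, same-numbered r was -0.23, -0.21 and 0.15 in wild-type and 0.0098, -0.058 and 0.040 in labelled knockout, and not every library correlated best with its own number. Untreated replicate 2 and treated replicate 1 of wild-type gave 0.35. Both deviated with exon length, untreated replicate 2 from 0.056 under 2 kb to -0.12 over 10 kb. These values therefore cannot decide whether the numbers mark pairs.

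Over all genes the interaction called 557 genes, 4720 with library weights (whose weight estimation stopped before convergence), 910 with DESeq2, 371 with no filter, 1548 without replicate 1 and 894 without replicate 3 of treated wild-type, and 272 to 345 without any 1 of 8 other libraries. The genotype contrasts called 4823 genes untreated and 5284 with PDGF-BB, 8006 and 10265 with library weights, and 3438 with PDGF-BB when only the 2 groups compared were fitted. Direction changed only for differences that were not called with all libraries. The Has3 response in labelled knockout was 0.019 with TMM, 0.18 with quantile normalization, 0.090 with library weights, 0.016 with edgeR, 0.0044 with DESeq2 and -0.13 to 0.13 with a library left out. The Has3 genotype difference with PDGF-BB was -0.012 with a pseudocount of 5, -0.48 with library weights (called) and -0.30 to 0.27 with a library left out. Acan in labelled knockout was -0.010 with quantile normalization and -0.0031 to 0.071 with a library left out, and Has2 there -0.00015 with a pseudocount of 5 and -0.14 to 0.094. The Hapln1 interaction was 0.044 with a pseudocount of 5, the Tnfaip6 one -0.051 with edgeR, -0.042 with DESeq2 and -0.013 to 0.19 with a library left out, and the untreated Has1 difference -0.064 to 0.19. The Has2 share differed between genotypes untreated by 19.4 points with no length scaling and 21.1 points with GENCODE lengths, in place of 9.85, and its labelled knockout response ran from -1.48 to 0.75 points with a library left out. The GENCODE lengths were chosen after seeing the data. The cause of these changes was not tested beyond the settings themselves. Has1, Has2, Has3, Hapln3, Hapln4 and Tnfaip6, at 5 to 142 reads a library, are limited by depth as well as by the spread between libraries. The same holds for Hapln1 in labelled knockout, at 12 to 22 reads.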
